A study of Mus musculus with 35 samples.

Results

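The lungs of mice ventilated with an injurious stretch were compared by whether the inspired gas carried carbon dioxide. Members were chosen by title alone: 10 arrays of the group at high stretch with hypercapnia and 10 arrays of the group at high stretch with normocapnia, 20 of the 35 arrays of the series. Each array held lung RNA of 1 mouse, without pooling, and the mice, adult C57BL/6J males of 20 to 25 g on a normal diet, had been allocated to the groups at random. Both high stretch groups were anesthetized, tracheostomized and ventilated for 3 h on tidal volumes of about 35 to 40 mL/kg, which peaked at 27 cmH2O on inspiration and returned to 0 cmH2O at the end of expiration, at a rate of 30 to 35 per minute, on gas with 75% oxygen and a balance of nitrogen. The hypercapnia group breathed 12% CO2 in that gas and the normocapnia group none. The other 15 arrays came from 5 non-ventilated mice and from 5 mice each at low stretch in normocapnia and in hypercapnia (3 h on 10 mL/kg at 135 per minute, 2 cmH2O held at end expiration, room air with or without 12% CO2). The lungs were lavaged before they were frozen, so cells recovered by lavage are not part of these samples. Low and high stretch also differed in oxygen, rate and end-expiratory pressure, so stretch alone cannot be told apart from these.

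Carbon dioxide crosses cell membranes and is hydrated to carbonic acid, by carbonic anhydrases where they are present, so that inhaled CO2 acidifies blood and cells at the same time. Raised CO2, or hypercapnic acidosis, is known to dampen inflammatory signalling and to lessen ventilator-induced lung injury in animals, and also to slow epithelial repair and alveolar fluid clearance. Overstretch of the lung is known to set off immediate-early genes, chemokines, shedding of epidermal growth factor (EGF) receptor ligands and mechanosensitive transcription. The comparison asks which of the lung's transcripts differ when the same stretch is given with CO2.

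The tissue label held on all 20 arrays. The surfactant gene Sftpc lay between 13.96 and 14.08 log2 units, the club cell gene Scgb1a1 between 13.60 and 13.84, the alveolar type 1 gene Ager between 12.79 and 13.02 and the endothelial gene Pecam1 between 11.41 and 11.70. Several hypercapnia arrays stood apart. Replicates 2, 8 and 10 had median correlations of 0.9904, 0.9907 and 0.9902 with the other arrays of their group, where no other high stretch array was below 0.9926. Replicates 1 and 2 of the hypercapnia group carried RNA of skeletal muscle and squamous epithelium. Acta1, skeletal alpha-actin, stood at 10.59 and 10.98 against at most 8.49 on the other 18 high stretch arrays. The squamous keratin Krt13 stood at 9.64 and 11.87 against at most 7.17. The mean of the 12 skeletal muscle markers was 8.28 and 8.53 on these arrays and at most 7.00 on the other 18 high stretch arrays. Their part in the results was not tested beyond leaving the arrays out. Such RNA was also present in other groups. The highest array mean of these markers was 8.57 in non-ventilated lungs, 7.92 in low stretch normocapnia and 8.56 in low stretch hypercapnia. Replicate 10 of the hypercapnia group had the highest mean of the interferon-stimulated genes, 9.79, where the other 19 arrays reached at most 8.70. Counts below are therefore also given without replicates 2, 8 and 10 and without replicates 1 and 2 of that group, sets chosen after the values had been seen.

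Of 19938 genes tested, 1109 (5.56%) differed between hypercapnia and normocapnia at high stretch at an adjusted p under 0.05 (limma, Benjamini-Hochberg over all genes). Hypercapnia was higher for 497 (2.49%) and lower for 612 (3.07%). The differences were small: the median size among called genes was 0.22 on the log2 scale with a median standard error (SE) of 0.05, 33 genes reached 0.5 (7 higher, 26 lower) and 0 of the called genes reached 1. In 87 genes (0.436%) all 10 hypercapnia arrays lay on one side of all 10 normocapnia arrays, 35 with hypercapnia higher (0.176%) and 52 with hypercapnia lower (0.261%). Without replicates 2, 8 and 10 of hypercapnia 924 genes were called, 549 higher and 375 lower, of which 688 were among the 1109. Without replicates 1 and 2 there were 674 calls, 332 higher and 342 lower, of which 649 were among the 1109. When each array was centred on its own median, 32.9% of 1075 calls were higher in hypercapnia, against 44.8% in the deposited scaling, so the balance of directions depends on the scaling.

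Among the 15 largest falls were heme oxygenase, chemokines, an inhibitor of metalloproteinases, connective tissue growth factor and growth factors, and they spanned 1.49-fold to 1.89-fold. The 15 largest rises, 1.35-fold to 1.68-fold, were led by Pmvk, an enzyme of cholesterol synthesis, and Ttpa, the tocopherol transfer protein. In 3 of the 15 falls (Slc26a4, Sh2d4a and Pdgfb) and 1 of the 15 rises (Car14) the groups did not overlap on any array. In this bulk tissue, fewer cells of a type and less RNA per cell cannot be told apart for any of these genes.

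**Figure D1:**
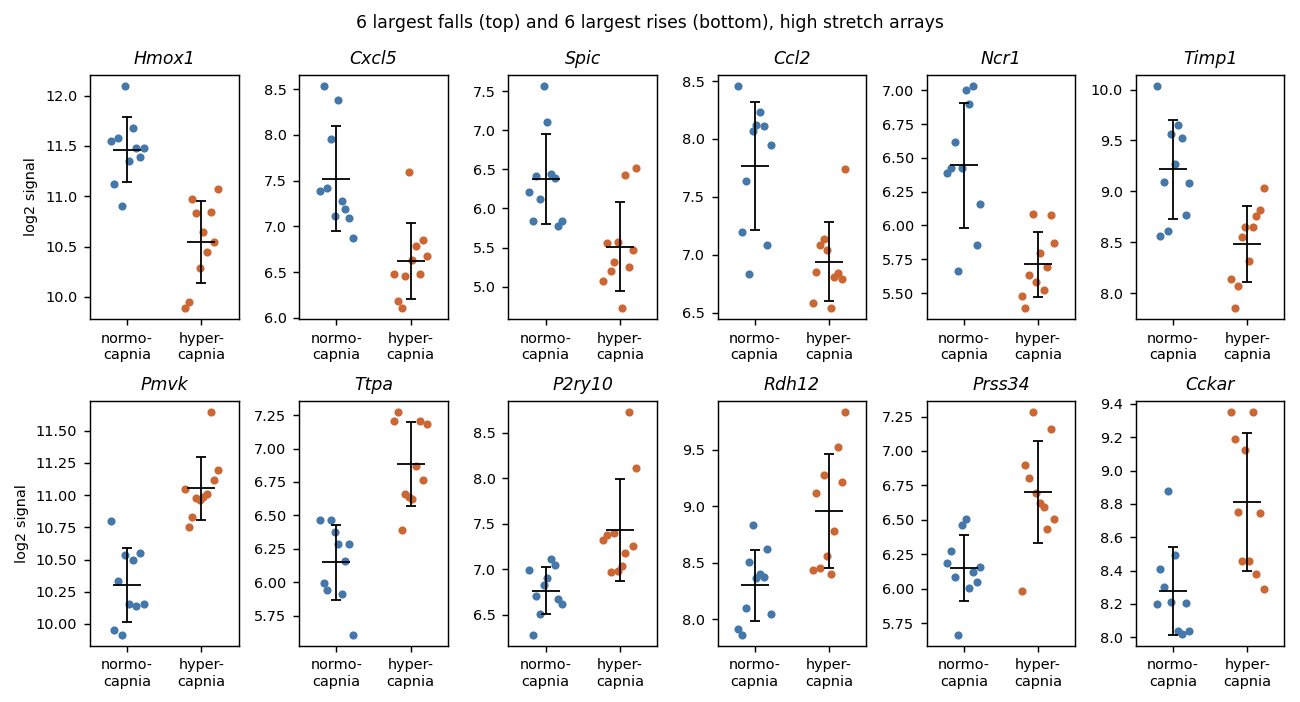
Deposited log2 signal of each high stretch array for the 6 genes with the largest falls (top) and the 6 with the largest rises (bottom) among called genes; each point is 1 mouse, blue for normocapnia and orange for hypercapnia, and the bars give the mean and SD (n = 10 per group). The axes do not start at 0 and differ between panels; in Hmox1, 8 of the 10 hypercapnia arrays lie below every normocapnia array, and in Pmvk 9 lie above.

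**Figure D2:**
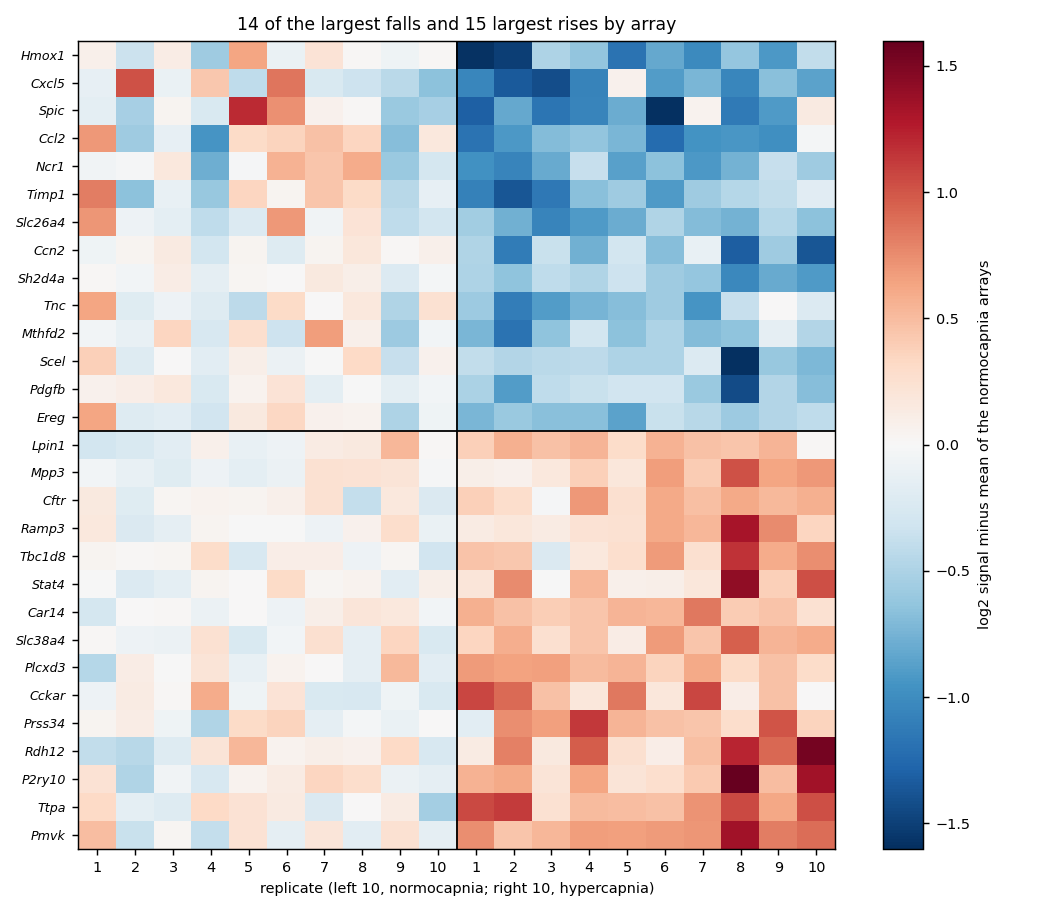
Of the 15 largest falls, 14 (upper rows), and the 15 largest rises (lower rows) on each of the 20 high stretch arrays, as log2 signal minus the mean of the normocapnia arrays; columns are replicates, normocapnia on the left and hypercapnia on the right, and values past the ends of the colour scale take the end colour. Hypercapnia replicate 8 holds the lowest Scel and Pdgfb and the highest P2ry10 and Stat4.

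Single genes that handle CO2, bicarbonate and protons differed, in lists whose called shares lay on either side of the 5.56% of all genes: 6.25% of carbonic anhydrases, 13.3% of bicarbonate and anion exchangers, 11.1% of sodium-proton exchangers and proton pumps, 5.26% of sensors and 0% of fluid clearance genes. With 14 to 19 genes a list, each share rests on 0 to 2 calls. Of 16 carbonic anhydrases 1 rose and none fell, and the median change of the list was 0.02 against -0.01 over all genes. That gene was Car14, a membrane-bound carbonic anhydrase that faces the outside of the cell. Its log2 signal ran from 7.05 over a median of 7.34 to 7.52 in normocapnia and from 7.57 over 7.79 to 8.17 in hypercapnia. The lowest hypercapnia array was thus above the highest normocapnia array, a difference of 0.49 ± 0.08 (SE; 1.4-fold; adjusted p = 9.65e-05). Car4, the carbonic anhydrase of the lung capillary surface, had a difference of 0.03 ± 0.06 (adjusted p = 0.881), and the cytosolic Car2 one of 0.20 ± 0.07 (adjusted p = 0.123).

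Among 15 bicarbonate and anion exchangers 1 rose and 1 fell, and both move anions across the airway surface. Slc26a4 encodes pendrin, an exchanger of chloride for bicarbonate and other anions that airway inflammation is known to induce. Its signal lay between 6.91 and 8.03 in normocapnia, with a median of 7.20, and between 6.26 and 6.86 in hypercapnia, with a median of 6.59. No array of one group reached into the other, and the gene fell by 0.71 ± 0.14 (1.64-fold; adjusted p = 0.00124). Cftr, the epithelial chloride and bicarbonate channel mutated in cystic fibrosis, went the other way. Its values were 7.31, 7.74 and 7.94 (lowest, median, highest) in normocapnia and 7.67, 8.19 and 8.38 in hypercapnia, and 9 of the 10 hypercapnia arrays were above every normocapnia array. The rise was 0.44 ± 0.09 (1.35-fold; adjusted p = 0.00243). Slc4a1, the anion exchanger of red cells, had a difference of 0.58 ± 0.19 that did not pass (adjusted p = 0.0635). Both calls stood without either set of doubted arrays, and Slc4a1 was called higher without replicates 2, 8 and 10 (0.76; adjusted p = 0.0184).

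Of 18 sodium-proton exchangers and proton pump genes 2 fell slightly, Slc9a8, an exchanger of the Golgi (by 0.17 ± 0.04; adjusted p = 0.0109), and Atp6v1b2, a subunit of the vacuolar proton pump (by 0.13 ± 0.04; adjusted p = 0.0308). Of 19 proton and bicarbonate sensors 1 fell, Kcnk2, the potassium channel TREK-1, which responds to stretch and to intracellular acid. Kcnk2 ran from 8.98 over 9.12 to 9.30 in normocapnia and from 8.24 over 8.78 to 9.04 in hypercapnia, a fall of 0.39 ± 0.08 (1.31-fold; adjusted p = 0.00227). On 8 of the hypercapnia arrays it lay below the whole normocapnia range. None of the 14 alveolar fluid clearance genes, which include the epithelial sodium channel subunits, was called, and their median change was -0.01. Adjusted p for Atp6v1b2 was 0.14 without replicates 2, 8 and 10.

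Inflammatory transcripts were lower in hypercapnia where they differed at all. Of 25 inflammatory cytokines and chemokines 4 fell (Cxcl5, Ccl2, Ccl7 and Csf1) and none rose, a called share of 16% against 5.56% of all genes. In that list 21 had a negative difference, and the median was -0.19. Cxcl5, a neutrophil chemokine made by alveolar epithelium, had values of 6.87, 7.34 and 8.54 (lowest, median, highest) in normocapnia. In hypercapnia they were 6.11, 6.56 and 7.59, with 9 of 10 arrays under the normocapnia range and replicate 5 inside it. It fell by 0.90 ± 0.17 (1.86-fold; adjusted p = 0.00102). Ccl2, the main chemokine for monocytes, ran from 6.83 over 8.01 to 8.46 without CO2 and from 6.54 over 6.85 to 7.74 with it. The ranges overlapped more than those of Cxcl5, with 4 hypercapnia arrays below every normocapnia array, and the fall was 0.83 ± 0.18 (1.77-fold; adjusted p = 0.00396). Ccl7, a related monocyte chemokine, fell by 0.54 ± 0.14 (adjusted p = 0.013).

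The difference was largest, and most scattered, in Cxcl10, an interferon-induced chemokine for T cells. It ranged from 7.92 to 11.14 in normocapnia and from 7.45 to 11.76 in hypercapnia, where replicate 10 alone was above 8.25. The difference was -1.20 ± 0.48 and did not pass (adjusted p = 0.148). Without replicates 2, 8 and 10 it was -1.58 (adjusted p = 0.0326). The classical stretch cytokines Il6 and Tnf had differences of -0.34 ± 0.20 (adjusted p = 0.404) and -0.45 ± 0.18 (adjusted p = 0.16), and Il1b one of -0.19 ± 0.25 (adjusted p = 0.8). These and Csf1 were chosen for naming after their values had been seen. Without replicates 1 and 2 of hypercapnia 2 of the 4 cytokine calls remained, Cxcl5 and Ccl2, and the difference of Ccl7 was -0.44 (adjusted p = 0.0766). Csf1 was not called without either doubted set (adjusted p = 0.0695 and 0.137).

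Targets of NF-kappaB, the transcription factor that drives most of these chemokines, had a median change of -0.21 over 19 measured genes, 18 of them negative. Only 1 passed (5.26%, near the 5.56% of all genes), the adhesion molecule Icam1, which fell by 0.26 ± 0.06 (adjusted p = 0.00913). Tnip3 and Tnfaip2, feedback regulators or targets of the pathway, had differences of -0.42 ± 0.15 (adjusted p = 0.0879) and -0.40 ± 0.17 (adjusted p = 0.198). The number called in this list was between 1 and 9 over the processing alternatives, 9 with array weights. Among 19 interleukin-6 and STAT3 targets 1 fell, Timp1 (5.26%, also near the share of all genes), and the median was -0.13. Timp1, an inhibitor of matrix metalloproteinases, ran from 8.56 over 9.18 to 10.04 in normocapnia and from 7.85 over 8.60 to 9.04 in hypercapnia. On 5 arrays it lay below the normocapnia range, and the fall was 0.73 ± 0.16 (1.66-fold; adjusted p = 0.00517). The 18 interferon-stimulated genes had a median of -0.02 and no call.

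Immediate-early genes are the transcription factors and phosphatases induced within minutes to hours of a stimulus. They had 3 falls and no rise among 30 (10%, against 5.56% of all genes), with a median of -0.08. Egr2, a zinc-finger factor, spanned 8.25 to 9.46 (median 9.05) in normocapnia and 7.74 to 8.93 (median 8.50) in hypercapnia. The groups overlapped, with 3 arrays below the normocapnia range, and the fall was 0.56 ± 0.14 (1.48-fold; adjusted p = 0.0138). Fosl1, a partner of Jun in the AP-1 factor, fell by 0.42 ± 0.11 (adjusted p = 0.0125), and Myc, a factor that drives growth and ribosome production, by 0.41 ± 0.12 (adjusted p = 0.0284). Fosb and Ier3 had differences of -0.71 ± 0.22 (adjusted p = 0.0573) and -0.45 ± 0.15 (adjusted p = 0.0626). None of the 3 calls was left without replicates 1 and 2 of hypercapnia (Egr2 -0.43, adjusted p = 0.0824; Fosl1 -0.36, adjusted p = 0.0674; Myc -0.37, adjusted p = 0.104).

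Among the growth factors, 3 ligands of the EGF receptor family were lower in hypercapnia. Of 22 genes of Adam17 and the EGF receptor ligands 3 fell and none rose (13.6%, against 5.56% of all genes), with a median of -0.03. At low stretch the list median was 0.10, with 15 of 22 differences positive and 0 called. The sheddase Adam17 itself, which releases these ligands from the cell surface, differed by -0.10 ± 0.05 and did not pass (adjusted p = 0.274). Ereg, the ligand epiregulin, lay between 6.24 and 7.37 (median 6.73) in normocapnia and between 5.88 and 6.37 (median 6.15) in hypercapnia. On 6 hypercapnia arrays it was below all normocapnia arrays, and it fell by 0.58 ± 0.11 (1.49-fold; adjusted p = 0.000681). Btc, the ligand betacellulin, and Nrg1, neuregulin, which binds related ERBB receptors, fell by 0.27 ± 0.07 (adjusted p = 0.0145) and 0.22 ± 0.07 (adjusted p = 0.0384). Hbegf, the heparin-binding ligand, had a difference of -0.40 ± 0.16 (adjusted p = 0.148). Nrg1 did not pass without either set of doubted arrays (adjusted p = 0.0625 and 0.117). Alox5, the lipoxygenase that starts leukotriene synthesis, differed by -0.14 ± 0.07 (adjusted p = 0.332).

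Of the mechanosensitive and matrix lists, called shares were 9.09% for targets of YAP and SRF, 6.25% for coagulation and fibrinolysis and 4.55% for metalloproteinases, near the 5.56% of all genes. Of 22 targets of YAP and SRF, the transcription regulators that read cell tension, 2 fell, Ccn2 and Amotl2, with a list median of -0.03. Ccn2, connective tissue growth factor, ran from 11.70 over 12.03 to 12.16 without CO2 and from 10.62 over 11.36 to 11.87 with it. All but 1 of the hypercapnia arrays lay below every normocapnia array, and the fall was 0.71 ± 0.15 (1.63-fold; adjusted p = 0.00271). It was 0.47 in size, at -0.47 (adjusted p = 0.0406), without replicates 2, 8 and 10, which held low values, and Amotl2 was then not called (-0.22; adjusted p = 0.111). Tnc, the matricellular protein tenascin C, ran from 7.59 over 8.03 to 8.70 in normocapnia and from 6.97 over 7.44 to 8.07 in hypercapnia. It fell by 0.61 ± 0.15 (adjusted p = 0.0108), with 7 arrays below the normocapnia range. Plau, the urokinase activator of plasminogen, was the single call among 16 coagulation and fibrinolysis genes and fell by 0.45 ± 0.09 (1.37-fold; adjusted p = 0.000878). Among 22 metalloproteinases and inhibitors only Timp1 passed, and the gelatinase Mmp9 differed by -0.60 ± 0.20 (adjusted p = 0.0768).

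Pdgfb and Sh2d4a were, with Slc26a4, the genes among the 15 largest falls whose groups did not overlap. Pdgfb, the growth factor by which endothelium recruits pericytes, ran from 9.45 over 9.72 to 9.90 in normocapnia and from 8.26 over 9.21 to 9.39 in hypercapnia. The groups did not overlap and it fell by 0.59 ± 0.10 (1.51-fold; adjusted p = 0.000463), although replicate 8 of hypercapnia, at 8.26, was well under the rest. Without replicates 2, 8 and 10 the difference was -0.42 (adjusted p = 0.00272). Sh2d4a, an adaptor with an SH2 domain, was at 7.98 to 8.35 (median 8.21) in normocapnia and 7.17 to 7.86 (median 7.60) in hypercapnia, a fall of 0.63 ± 0.07 (1.55-fold; adjusted p = 3.9e-06). Scel, sciellin of the epithelial cell envelope, ran from 9.69 to 10.44 in normocapnia and from 8.37 to 9.85 in hypercapnia. Its fall of 0.59 ± 0.16 (adjusted p = 0.021) was not called without replicates 2, 8 and 10 (-0.44; adjusted p = 0.1). Of 17 genes linked to injured epithelium 2 fell (11.8%, against 5.56% of all genes). The lectin Lgals3 fell by 0.35 ± 0.08 (adjusted p = 0.00381) and Anxa1, annexin A1, by 0.24 ± 0.05 (adjusted p = 0.00413).

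The largest fall of a called gene was that of Hmox1, the heme oxygenase that breaks down heme and is induced by oxidants. It spanned 10.90, 11.48 and 12.10 (lowest, median, highest) in normocapnia and 9.89, 10.59 and 11.07 in hypercapnia. On 8 of 10 hypercapnia arrays it was below every normocapnia array, a fall of 0.92 ± 0.19 (1.89-fold; adjusted p = 0.00233). It was lowest on hypercapnia replicates 1 and 2, and -0.76 (adjusted p = 0.0178) without them. Of 22 targets of NRF2, the factor that switches on antioxidant genes, 4 fell and none rose, with a median of -0.09. The called share was 18.2%, against 5.56% of all genes. Gclm, the modifier subunit of the enzyme that limits glutathione synthesis, fell by 0.38 ± 0.08 (adjusted p = 0.0046), Prdx1 by 0.22 ± 0.06 (adjusted p = 0.0241; 0.059 without replicates 2, 8 and 10) and Pgd, of the pentose phosphate pathway, by 0.19 ± 0.04 (adjusted p = 0.00323). The NRF2 target Nqo1 differed by -0.05 ± 0.09 (adjusted p = 0.884). Spic, a transcription factor of heme-handling macrophages, ran from 5.78 over 6.30 to 7.57 in normocapnia and from 4.72 over 5.39 to 6.52 in hypercapnia. It fell by 0.86 ± 0.23 (1.82-fold; adjusted p = 0.0207), and was not called without replicates 1 and 2 (-0.81; adjusted p = 0.0669).

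**Figure D3:**
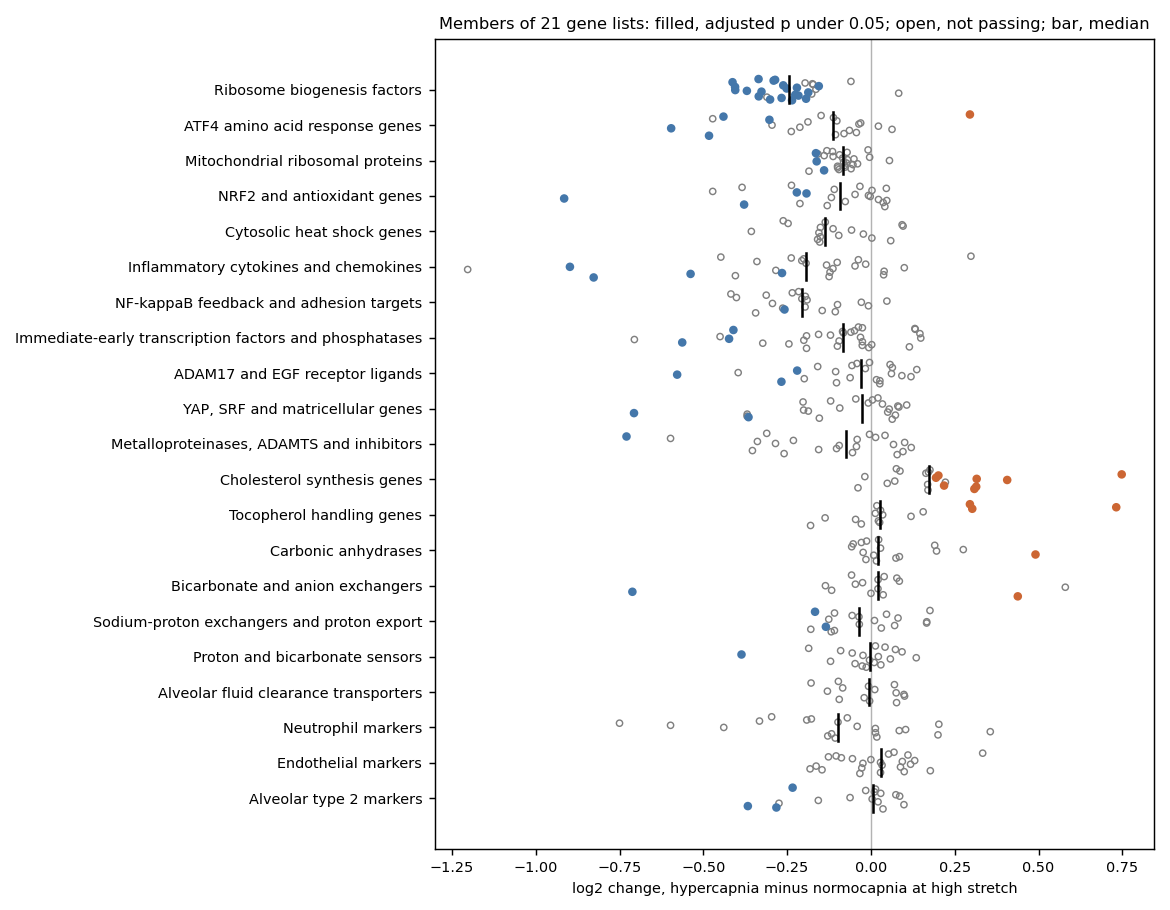
Members of 21 gene lists (rows), each point 1 gene placed by its log2 difference, hypercapnia minus normocapnia at high stretch (10 against 10 arrays); filled points passed an adjusted p of 0.05 (orange higher, blue lower), open points did not, and black bars give list medians. Ribosome biogenesis factors lie to the left of 0 in 27 of 28 cases and cholesterol synthesis genes to the right in 18 of 20.

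The broadest fall within a list was in ribosome biogenesis, the nucleolar machinery that transcribes ribosomal RNA and assembles ribosomes. Of 28 factors 20 fell and none rose (71.4% called, against 5.56% of all genes). In 27 the difference was negative, and the median was -0.24 against -0.01 over all genes. Without replicates 2, 8 and 10 of hypercapnia 17 were called, and without replicates 1 and 2, 14. Utp20, of the complex that processes the small subunit's RNA, ran from 8.41 over 8.54 to 8.77 in normocapnia and from 7.85 over 8.19 to 8.30 in hypercapnia. The groups did not overlap, and it fell by 0.41 ± 0.07 (1.33-fold; adjusted p = 0.000208). Nop56, of the particles that methylate ribosomal RNA, was also separate, at 10.21 to 10.63 (median 10.43) against 9.60 to 10.18 (median 10.10). Its fall was 0.37 ± 0.07 (adjusted p = 0.000553). Polr1b, a subunit of RNA polymerase I, fell by 0.41 ± 0.07 (adjusted p = 0.000577), and Nop58, the partner of Nop56, by 0.40 ± 0.10 (adjusted p = 0.0129). Nop58 was not called without replicates 1 and 2 (-0.34; adjusted p = 0.073). Ribosomal proteins of mitochondria moved less: 3 of 27 fell, their median was -0.08, and 0 were called without either set of doubted arrays.

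Because these factors moved together, their promoters were searched for CACGTG, the E-box bound by Myc and related factors, which reads the same on both strands. RefSeq windows of 250 bases upstream of the start (GRCm38.p6) were found for 24 of the 28, and 3 of them held the motif (12.5%), against 8.11% of 15614 genes, 9.96% of the genes that fell and 9.88% of those that rose. Of the cholesterol synthesis genes 4 of 16 windows held it (25%), and of the tRNA synthetases 2 of 11 (18.2%), so the motif was not particular to the falling list. The windows of Nop2 and Rrn3, a nucleolar methyltransferase and an initiation factor of RNA polymerase I, are shown as examples of genes of the list that fell, with the motif in capitals. The Nop2 site lies at chr6:125131803-125131848, 60 bases before the start, and the Rrn3 site at chr16:13780631-13780676, 48 bases before it, both on the plus strand. The Rrn3 window holds another CACGTG 215 bases before the start, which is not shown.
Nop2: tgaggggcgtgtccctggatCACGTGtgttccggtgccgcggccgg
Rrn3: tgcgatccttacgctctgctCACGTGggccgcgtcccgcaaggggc
Nop2 fell by 0.33 ± 0.05 (adjusted p = 6.94e-05) and Rrn3 by 0.16 ± 0.04 (adjusted p = 0.0289; 0.14 without replicates 1 and 2). A match describes these letters and shows no binding.

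Some genes that supply the parts of protein and RNA synthesis were also lower. Their lists were added after the values had been seen and are given as counts and medians, with no test of a list. Of 18 cytosolic aminoacyl-tRNA synthetases, which load transfer RNAs with amino acids, 9 fell and none rose (median -0.17). The called share was 50%, against 5.56% of all genes. The isoleucine enzyme Iars ran from 9.91 over 10.13 to 10.40 in normocapnia and from 9.33 over 9.76 to 9.89 in hypercapnia, with no overlap and a fall of 0.44 ± 0.07 (1.36-fold; adjusted p = 0.000211). Of 19 genes of purine and pyrimidine synthesis 6 fell and 1 rose (36.8% called, median -0.09). Ctps, the enzyme that makes CTP, ran from 9.57 over 9.86 to 10.32 in normocapnia and from 9.05 over 9.31 to 9.70 in hypercapnia. It fell by 0.55 ± 0.08 (1.47-fold; adjusted p = 9.65e-05), with 9 arrays below the normocapnia range. Among 17 subunits of RNA polymerases I and III 6 fell (35.3%, median -0.07). This list overlaps with the ribosome biogenesis factors, since Polr1b is in both, so their counts are not separate. Of the machinery that folds and degrades proteins, 3 of 8 subunits of the chamber TRiC fell (37.5%, median -0.13), and 3 of 31 proteasome subunits (9.68%, median -0.08). None of these 3 lists had a rise, and the TRiC count was 0 without replicates 2, 8 and 10.

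ATF4 is the transcription factor of the amino acid response, and 4 of 21 of its targets fell and 1, Vldlr, rose (median -0.11). The called share was 23.8%, against 5.56% of all genes. Mthfd2, a mitochondrial enzyme of one-carbon metabolism, ran from 8.04 over 8.57 to 9.29 in normocapnia and from 7.43 over 7.97 to 8.46 in hypercapnia. It fell by 0.60 ± 0.13 (1.51-fold; adjusted p = 0.00491). Asns, asparagine synthetase, did not overlap between the groups, at 10.37 to 11.11 (median 10.63) against 9.90 to 10.36 (median 10.19). Its fall was 0.48 ± 0.08 (1.4-fold; adjusted p = 0.000149). The leucine transporter Slc7a5 fell by 0.44 ± 0.09 (adjusted p = 0.00227), and the cystine transporter Slc7a11 differed by -0.47 ± 0.22 (adjusted p = 0.246). In other stress lists, none of 20 endoplasmic reticulum chaperones and unfolded protein response genes (median -0.02), 17 cytosolic heat shock genes (median -0.14), 24 hypoxia and glycolysis genes (median 0.00), 21 glucocorticoid targets (median 0.06) or 31 respiratory chain subunits (median 0.00) was called in the main fit. Of the 17 heat shock genes 13 had a negative difference, and up to 3 were called lower over the processing alternatives. Up to 4 glucocorticoid targets were called higher and up to 1 lower there.

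Genes of cholesterol synthesis formed the clearest group of rises. Of 20 measured cholesterol synthesis genes 8 rose and none fell (40% called, against 5.56% of all genes). In 18 the difference was positive, and the median was 0.17. The count of rises was 9 without replicates 2, 8 and 10 of hypercapnia and 6 without replicates 1 and 2. Pmvk, the kinase that phosphorylates phosphomevalonate, had the largest rise of a called gene. It ran from 9.92 over 10.24 to 10.80 in normocapnia and from 10.75 over 10.996 to 11.65 in hypercapnia. On 9 of 10 hypercapnia arrays it was above every normocapnia array, a rise of 0.75 ± 0.13 (1.68-fold; adjusted p = 0.000577). Lss, lanosterol synthase, which closes the sterol rings, did not overlap: 8.40 to 8.79 (median 8.62) against 8.89 to 9.27 (median 9.00). It rose by 0.41 ± 0.06 (1.33-fold; adjusted p = 4.21e-05). Msmo1, a sterol demethylase, rose by 0.32 ± 0.07 (adjusted p = 0.00459), and Fdft1, squalene synthase, by 0.31 ± 0.06 (adjusted p = 0.00124). Hmgcs1, an early enzyme of the pathway, differed by 0.17 ± 0.07 (adjusted p = 0.143), and Sqle, squalene epoxidase, by 0.17 ± 0.07 (adjusted p = 0.139); both were named after their values had been seen.

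Tocopherols, the vitamin E lipids, are antioxidants of membranes. Of 15 genes that bind or move them 3 rose and none fell (20% called, against 5.56% of all genes, median 0.03). Ttpa, which loads alpha-tocopherol for export, ran from 5.61 over 6.22 to 6.47 in normocapnia and from 6.39 over 6.82 to 7.27 in hypercapnia. The groups met at a single array, with 9 hypercapnia arrays above the normocapnia range. Ttpa rose by 0.73 ± 0.11 (1.66-fold; adjusted p = 8.29e-05) and by 0.59 (adjusted p = 0.00215) and 0.64 (adjusted p = 0.000834) without the doubted sets. Sec14l4, a lipid-binding relative of the supernatant protein factor, rose by 0.30 ± 0.06 (adjusted p = 0.000876), and the lipoprotein receptor Vldlr by 0.30 ± 0.08 (adjusted p = 0.0155). Vldlr was not called without replicates 1 and 2 (0.26; adjusted p = 0.0687).

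Of 31 genes of fatty acid oxidation and synthesis, a list added after the values had been seen, 8 rose and 1 fell (median 0.06). The called share was 29.0%, against 5.56% of all genes. Fabp5, a fatty acid carrier, did not overlap between groups, at 8.70 to 9.04 (median 8.90) in normocapnia against 9.19 to 9.49 (median 9.28) in hypercapnia. It rose by 0.42 ± 0.08 (1.34-fold; adjusted p = 0.000577). Lpin1, a phosphatidic acid phosphatase and nuclear coactivator, rose by 0.43 ± 0.11 (adjusted p = 0.01), Ppargc1a, the coactivator of mitochondrial biogenesis, by 0.38 ± 0.10 (adjusted p = 0.0187) and Ppara, the receptor that drives fatty acid oxidation, by 0.32 ± 0.05 (adjusted p = 7.33e-05). Gpam, which starts triglyceride synthesis, fell by 0.38 ± 0.06 (adjusted p = 0.000202), with all hypercapnia arrays (9.75 to 10.42) below all normocapnia arrays (10.44 to 10.67). Ppargc1a was not called without replicates 2, 8 and 10 (0.25; adjusted p = 0.134) or without 1 and 2 (0.27; adjusted p = 0.116). The count of rises was 4 without replicates 1 and 2.

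The remaining large rises belonged to no common list. P2ry10, a lysophospholipid receptor of lymphocytes, ran from 6.28 over 6.77 to 7.11 in normocapnia and from 6.97 over 7.29 to 8.73 in hypercapnia. It rose by 0.67 ± 0.16 (adjusted p = 0.00983), with replicates 8 and 10 highest, and by 0.40 (adjusted p = 0.0528) without replicates 2, 8 and 10. Rdh12, a retinal reductase, and Stat4, a transcription factor of T and natural killer cells, rose by 0.66 ± 0.19 (adjusted p = 0.0355) and 0.47 ± 0.14 (adjusted p = 0.0372). Neither was called without replicates 2, 8 and 10, nor was Tbc1d8 (0.45 ± 0.13; adjusted p = 0.0388) or the amino acid transporter Slc38a4 (0.50 ± 0.12; adjusted p = 0.00754). The values without them were 0.43 for Rdh12 (adjusted p = 0.22), 0.21 for Stat4 (adjusted p = 0.295), 0.31 for Tbc1d8 (adjusted p = 0.199) and 0.41 for Slc38a4 (adjusted p = 0.0576). Stat4 and Tbc1d8 were not called without replicates 1 and 2 either (adjusted p = 0.0739 and 0.0828). Prss34, a mast cell and basophil protease, ran from 5.67 over 6.14 to 6.51 in normocapnia and from 5.99 over 6.66 to 7.28 in hypercapnia, a rise of 0.55 ± 0.11 (adjusted p = 0.00236). Cckar, the cholecystokinin receptor, rose by 0.53 ± 0.13 (adjusted p = 0.0121) and was not called without replicates 1 and 2 (0.42; adjusted p = 0.0753). Plcxd3 rose by 0.51 ± 0.08 (adjusted p = 0.000208), Mpp3 by 0.43 ± 0.10 (adjusted p = 0.00603) and Ramp3, a partner of the adrenomedullin receptor, by 0.45 ± 0.11 (adjusted p = 0.00933).

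Few markers of the lung's cell types were called. Over 16 marker lists 8 of 232 measured markers were called (3.45%, under the 5.56% of all genes), and the list medians lay between -0.12 and 0.21. None of 21 neutrophil markers passed, with a median of -0.10 and the granule protein Ngp at -0.75 ± 0.41 (adjusted p = 0.355). The mean neutrophil marker level per array was 8.90 to 9.90 in normocapnia and 8.81 to 10.05 in hypercapnia, so the groups overlapped almost in full. None of 24 endothelial (median 0.03), 12 alveolar type 1 (median -0.01), 13 club cell (median 0.01) or 14 B cell markers (median -0.12) was called. Platelet markers were all 8 positive with no call (median 0.21), at a mean level per array of 8.00 to 8.44 in normocapnia and 8.08 to 8.78 in hypercapnia. Cardiac muscle markers were all 14 positive with no call (median 0.14), at 8.10 to 9.02 and 8.41 to 8.95. The 12 skeletal muscle markers, a list added later, were also all positive with no call (median 0.33), at 6.59 to 7.00 and 6.56 to 8.53. Their part in the other results was not tested. Single genes did fall: Ncr1, the activating receptor of natural killer cells, ran from 5.66 over 6.42 to 7.03 in normocapnia and from 5.39 over 5.66 to 6.08 in hypercapnia. It fell by 0.73 ± 0.14 (1.66-fold; adjusted p = 0.00124), the 1 call among 18 T and natural killer cell markers, whose median was 0.01. Cx3cr1, the fractalkine receptor of monocytes, was the single call among 20 monocyte and macrophage markers and fell by 0.46 ± 0.12 (adjusted p = 0.0189; 0.1 without replicates 2, 8 and 10). The fibroblast factor Tcf21 fell by 0.40 ± 0.10 (adjusted p = 0.0109; 0.0617 without replicates 1 and 2).

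Alveolar type 2 cells, which make surfactant, had 3 falls among 16 markers with a median of 0.01. This was the most of any cell type list by number. Its called share was 18.8%, against 20% of 10 mast cell and basophil markers and 5.56% of all genes. The count was 2 without each of the doubted sets. Slc34a2, their phosphate transporter, lay between 13.05 and 13.29 (median 13.12) in normocapnia and between 12.61 and 13.04 (median 12.90) in hypercapnia. The groups did not overlap, and it fell by 0.23 ± 0.04 (1.18-fold; adjusted p = 0.000833). The transcription factor Etv5 fell by 0.37 ± 0.07 (adjusted p = 0.00148). Cebpa, another factor of these cells, fell by 0.28 ± 0.07 (adjusted p = 0.016) and was not called without either doubted set (adjusted p = 0.115 and 0.0579). Sftpc, the defining surfactant gene, differed by -0.02 ± 0.03 (adjusted p = 0.853). Mast cell and basophil markers had 1 rise, the basophil protease Mcpt8 (0.32 ± 0.09; adjusted p = 0.0294), and 1 fall, the receptor Kit (by 0.18 ± 0.06; adjusted p = 0.0492). Kit was not called without either doubted set (adjusted p = 0.21 and 0.102).

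The low stretch groups give the same CO2 contrast on other arrays, 5 against 5. Their values did not enter the high stretch differences. They did enter the shared estimate of the spread and the choice of probe sets, so the contrasts are not fully independent. Muscle and squamous RNA also differed between the low stretch groups. The highest array mean was 8.56 for skeletal muscle and 8.14 for squamous markers in hypercapnia, against 7.92 and 5.99 in normocapnia. The part of this RNA in the low stretch contrast was not tested. There, 23 genes were called (0.115%), and 18 of them were also among the 1109. Of the 1109 genes, 1001 (90.3%) had the same sign at low stretch, against 60.5% of all genes, and 462 had that sign with an unadjusted p under 0.05 where 2 had the opposite sign at that level. The correlation of the changes was 0.784 across the called genes, 0.383 within those that rose, 0.345 within those that fell and 0.394 across all genes, which share arrays and are not independent. Genes that rose had a median of 0.21 at high and 0.12 at low stretch, and genes that fell -0.22 and -0.14. The genes were chosen by their high stretch difference, which favours larger sizes there. These medians therefore cannot tell whether the CO2 effect was weaker at low stretch. All 15 of the largest falls and 13 of the 15 largest rises had the same sign at low stretch, Plcxd3 (-0.02 ± 0.12) and Prss34 (-0.03 ± 0.16) being the exceptions. Pmvk rose by 0.93 ± 0.19 at low stretch (adjusted p = 0.0308), Ramp3 by 0.72 ± 0.15 (adjusted p = 0.0396), and Slc9a8 fell by 0.29 ± 0.06 (adjusted p = 0.0308). Ribosome biogenesis factors had a low stretch median of -0.12 with 23 of 28 negative, and cholesterol synthesis genes one of 0.11.

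**Figure D4:**
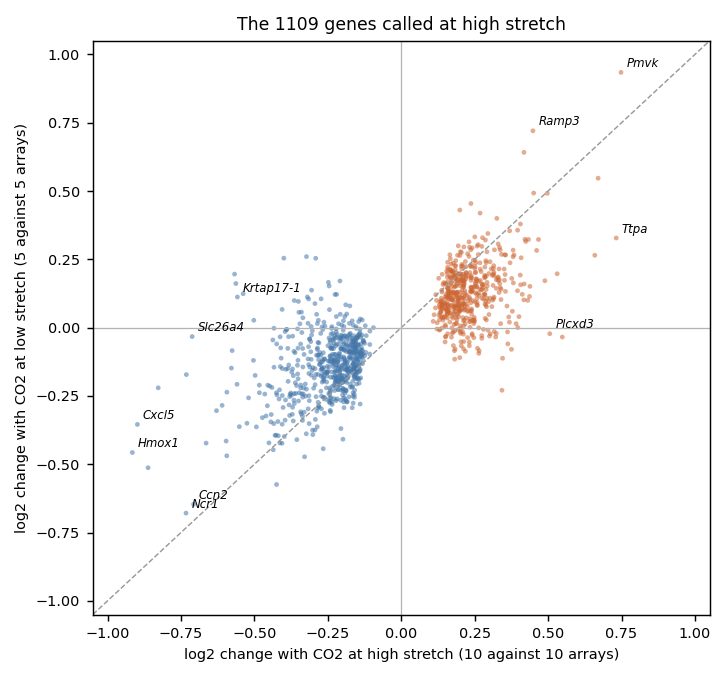
Each of the 1109 genes called at high stretch, placed by its log2 change with CO2 at high stretch (horizontal, 10 against 10 arrays) and at low stretch (vertical, 5 against 5 other arrays); orange rose and blue fell, and the dashed line marks equal change. Of these genes 1001 lie in the quadrants of equal sign, most of them nearer to 0 at low stretch. The genes were chosen by the horizontal value, which favours larger sizes on that axis.

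The difference between the CO2 effect at high and at low stretch was tested directly as an interaction, and 0 of 19938 genes passed (0.0%; limma, lowest adjusted p = 0.841). At an unadjusted p under 0.05 there were 893 genes in the main fit, where 996.9 are expected if no gene differs. Over the processing alternatives this unadjusted count lay on either side of 996.9. It was 1513 without the 3 hypercapnia arrays that stood apart, 1386 with array weights and 1382 with array spread as a covariate. Without the 2 hypercapnia arrays with skeletal muscle RNA it was 806. The count past the adjusted threshold was 0 under every processing alternative run. Some members had nonetheless unlike values. Krtap17-1 had the smallest interaction p (5.96e-05 unadjusted): it fell by 0.56 ± 0.08 at high stretch, with no overlap between 9.66 to 10.26 in normocapnia and 9.06 to 9.60 in hypercapnia, and differed by 0.11 ± 0.12 at low stretch. Slc26a4 differed by -0.03 ± 0.20 at low stretch against the fall of 0.71 at high stretch (unadjusted interaction p = 0.0075, adjusted 0.997). Egr2 differed by 0.16 ± 0.20 against a fall of 0.56 (unadjusted interaction p = 0.0063, adjusted 0.997). Immediate-early genes as a list had a median of 0.11 at low and -0.08 at high stretch, and injured epithelium genes 0.13 and -0.16. Genes of Adam17 and the EGF receptor ligands had 0.10 and -0.03. At an unadjusted interaction p under 0.05 (limma) were 8 of these 22 and 7 of 17 injured epithelium genes. Of the immediate-early genes 2 of 30 were, against 4.48% of all genes. None of these can be called different between the stretches from these arrays.

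Set among all 5 groups, the genes that were lower in hypercapnia stood in different places. Hmox1 had a mean of 8.77 ± 0.16 (SD, n = 5) in non-ventilated lungs, 10.44 ± 0.81 and 9.98 ± 0.47 at low stretch without and with CO2, 11.46 ± 0.32 at high stretch without and 10.55 ± 0.41 with CO2. Its level in high stretch hypercapnia was thus near that of low stretch normocapnia. Ccl2 was 6.40 ± 0.44 at low stretch normocapnia, 7.77 ± 0.55 at high stretch normocapnia and 6.94 ± 0.34 at high stretch hypercapnia. Ccn2 had means of 11.18 ± 0.33 and 10.53 ± 0.43 at low stretch and 11.98 ± 0.15 and 11.28 ± 0.43 at high stretch, without and with CO2. Ncr1 was low in both hypercapnia groups, at 6.39 ± 0.27 and 5.71 ± 0.39 at low and 6.45 ± 0.46 and 5.71 ± 0.24 at high stretch.

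The genes that were higher in hypercapnia also differed in where the other groups lay. Ttpa was 6.90 ± 0.24 and 7.23 ± 0.16 at low stretch and 6.15 ± 0.28 and 6.88 ± 0.31 at high stretch, so its level under high stretch with CO2 was close to that of low stretch without it. Car14 was highest in non-ventilated lungs (7.96 ± 0.11), at 7.33 ± 0.14 in high stretch normocapnia and at 7.82 ± 0.16 in high stretch hypercapnia. Pmvk had its lowest mean without ventilation and its highest at high stretch with CO2, from 8.58 ± 0.21 in non-ventilated lungs to 9.33 ± 0.29 and 10.27 ± 0.55 at low and 10.30 ± 0.29 and 11.05 ± 0.24 at high stretch. The stretch comparison within normocapnia shares its high stretch arrays with the CO2 comparison, so their values are set side by side and not correlated. In that comparison 24 of 28 ribosome biogenesis factors were called higher (18.3% of all genes were called in either direction), as were 12 of 25 cytokines and chemokines and 24 of 30 immediate-early genes. The corresponding falls with CO2 at high stretch were 20, 4 and 3.

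**Figure D5:**
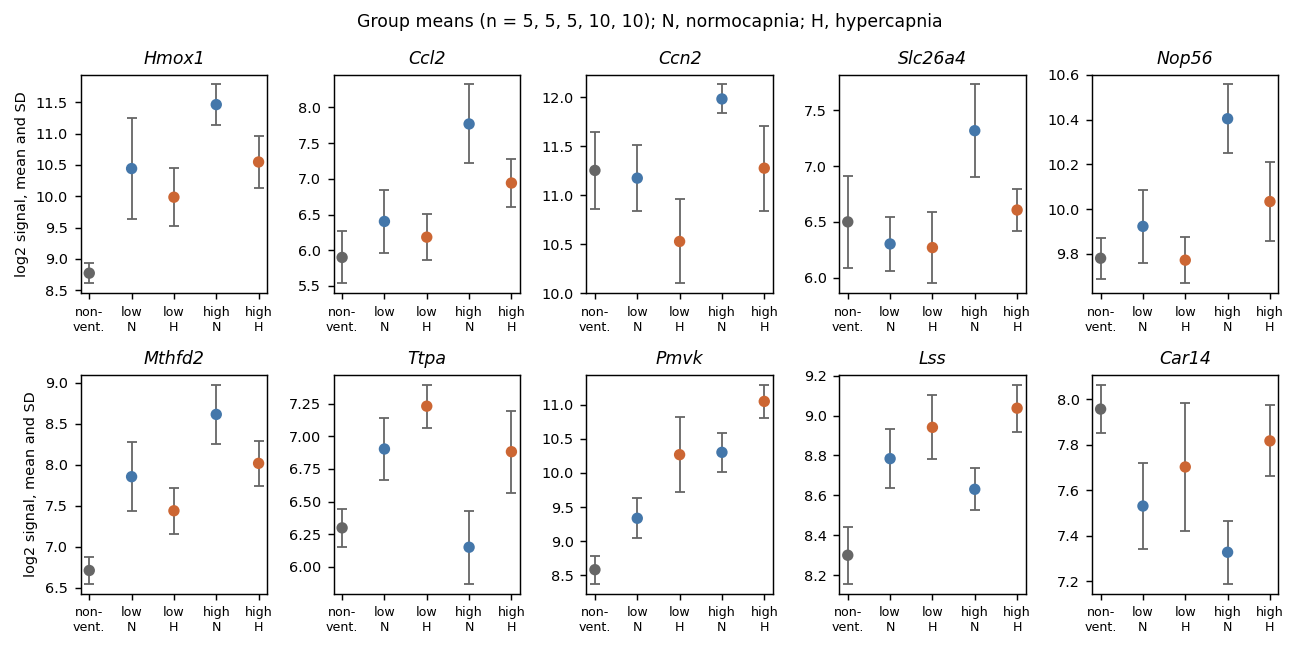
Mean and SD of the deposited log2 signal in the 5 groups for 10 genes (non-ventilated, low stretch and high stretch; grey, no ventilation; blue, normocapnia N; orange, hypercapnia H; n = 5, 5, 5, 10 and 10 mice). Axes do not start at 0; Hmox1, Ccl2 and Ccn2 are highest in high stretch normocapnia, and Pmvk in high stretch hypercapnia.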

How the data were processed

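RNA of 35 mouse lungs was measured on 35 whole-transcript Affymetrix arrays. The values analysed are the deposited log2 signals of 35557 probe sets, summarised with RMA per the submitters' processing notes, which also name Affymetrix Expression Console and Partek; versions and other settings are not given in the sources used here. Of the probe sets 21789 carry 1 gene symbol in the platform annotation, 1621 several and 12147 are unnamed here; each of 19938 genes was represented by its brightest such probe set on average. Probe sets for near-identical genes cannot be told apart.

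A linear model with a mean for each of the 5 groups was fitted to the 35 arrays in limma 3.58.1 (R 4.3.3, lmFit, eBayes). Tests were two-sided with Benjamini-Hochberg over all genes, called under 0.05. The method was run on simulated arrays with independent noise for each gene and no arrays that stand apart. Their set changes were larger than the median called here, so that run does not vouch for smaller calls. Array medians lay between 6.96 and 7.05, and the number of arrays limits the precision. Signals of some named genes, among them Spic, Ncr1, Prss34, Ttpa and Mcpt8, lay mostly under these medians. Whether such signals stood above background was not tested. Promoter sequences came from RefSeq (GRCm38.p6).

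The comparison, the 52 gene lists (972 of 1034 entries measured) and the rules were chosen with earlier results of these data known, and 9 further lists were added later. The text names the 15 largest rises and falls among called genes other than predicted genes, small RNAs, receptor families and antigen receptor segments, up to 4 members of a list by size of change, acid-base genes, Ttpa, Adam17, Alox5 and genes with the smallest interaction p, of 10 ranked. Some other members, among them Icam1, Prdx1, Pgd and Nqo1, were named outside this rule. The uncalled Bcl3 (-0.34), Tnip1 (-0.31), Srxn1 (-0.38) and Sfn (-0.41) had larger changes in their lists than some members named, and are not described above. Samples left out of the CO2 comparison at high stretch enter the estimate of the spread. One of the 15 largest falls is not reported here.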

Additional observations from a re-analysis of the deposited data

Results flagged for a closer look

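Over 109 of the genes named here, 15 of 218 sets of 10 arrays (6.88%) had 1 array far from the other 9 by Dixon's criterion, where chance flags about 1 in 20. Hypercapnia replicate 8 accounted for 4: it was low in Pdgfb (8.26, next array 8.80) and Scel (8.37, next 9.35) and high in Pmvk (11.65, next 11.19) and Ramp3 (8.68, next 8.11). Hypercapnia replicate 10 accounted for 3, high in Cxcl10 (11.76, next 8.25) and Ccl2 (7.74, next 7.14) and low in Lpin1 (9.63, next 9.89). Other hypercapnia arrays were replicate 5 in Cxcl5 (7.59, next 6.85), replicate 2 in Nop56 (9.60, next 9.88), replicate 7 in Nqo1 (8.23, next 7.76) and replicate 1 in Sqle (9.80, next 9.51). Among the normocapnia arrays these were replicate 6 in Adam17 (10.31, next 10.12), replicate 9 in Nrg1 (7.61, next 7.97), replicate 4 in Slc34a2 (13.29, next 13.18) and replicate 5 in Tnf (9.07, next 7.87).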

How the results depend on the processing

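The count of 1109 genes was within 1.5 times under most alternatives: 1127 with the compared arrays only, 1192 with trend and robust moderation, 1313 among genes above the median level, 1095 with the mean of a gene's probe sets, 1068 over all probe sets, 1075 with arrays centred on their median, 1291 after a second quantile normalization and 1478 with array spread as a covariate. Leaving out each array in turn gave 855 to 1176 genes, 366 to 561 higher and 460 to 710 lower. Array weights gave 2052 genes, 1048 higher and 1004 lower, 1100 of them among the 1109. Without hypercapnia replicates 2, 8 and 10 the lower calls were 375, and without replicates 1 and 2 there were 674 calls in all, 342 lower; fewer arrays were then fitted, and other causes were not tested. The interaction count was 0 in every alternative. With the replicate number as a block there were 1155 genes, 519 higher and 636 lower. Only 4 of 10 same-numbered pairs correlated above 0.1, with replicate 2 highest at 0.38, and 1 of 10 arrays matched its own number best. No pairing by number was therefore assumed, although weak correlation cannot show that same-numbered mice were unrelated in handling. Of the 30 largest changes 22 were called in each of the 32 settings that included them, and no named gene with a call changed direction. The other 8 were Stat4, Rdh12, Tbc1d8, P2ry10, Slc38a4, Scel, Cckar and Spic. Genes under the median level were not tested in the setting limited to genes above it. Stat4 also lost its call with array weights (0.33; adjusted p = 0.0632). The ribosome biogenesis count ranged from 14 to 24, cholesterol synthesis from 6 to 10, NRF2 targets from 3 to 7 and inflammatory cytokines from 1 to 5.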

Other observations

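Chromatin writers and a few single members of other lists also differed at high stretch. Of 29 histone methyltransferases, a list added after the values had been seen, 10 rose and 1 fell (37.9% called, against 5.56% of all genes). The median was 0.12 against -0.01 over all genes, and the rises were 8 to 12 over the alternatives run. They were small: Smyd3 rose by 0.28 ± 0.06 (limma, adjusted p = 0.00204), Setd7, which methylates lysine 4 of histone H3, by 0.22 ± 0.05 (adjusted p = 0.00323), and Ezh2, the catalytic subunit of Polycomb complex 2, by 0.17 ± 0.04 (adjusted p = 0.0192; 0.0901 without hypercapnia replicates 2, 8 and 10). Cry2, a repressor of the circadian clock, was the single call among 17 clock genes (5.88%, near the share of all genes). It rose by 0.36 ± 0.09 (adjusted p = 0.016, and 0.0924 without hypercapnia replicates 2, 8 and 10). Of the 17 differences 14 were positive.

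Single falls were found in lists that otherwise had no call. The called shares of these lists, 4.35% to 8.33%, lay near the 5.56% of all genes. Ptger4, a receptor of prostaglandin E, fell by 0.36 ± 0.10 (adjusted p = 0.0272), the 1 call among 23 leukotriene and prostaglandin genes. Slc30a1, the zinc exporter of the plasma membrane, ran from 8.71 over 8.86 to 8.95 in normocapnia and from 8.45 over 8.58 to 8.79 in hypercapnia. It fell by 0.25 ± 0.05 (adjusted p = 0.00178), while none of the other 11 metallothioneins and zinc transporters was called. The junction gene Cldn1, claudin 1, fell by 0.23 ± 0.06 (adjusted p = 0.0151), the p53 target Gadd45b by 0.36 ± 0.09 (adjusted p = 0.00887) and the growth factor Bmp2 by 0.23 ± 0.06 (adjusted p = 0.0268). Without hypercapnia replicates 2, 8 and 10 Bmp2 (adjusted p = 0.0808) and Gadd45b (0.0524) were not called, and without replicates 1 and 2 Bmp2 (0.127), Cldn1 (0.0713) and Ptger4 (0.119) were not.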
